A study of Mus musculus with 25 samples.

Results

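Growing wild-type myoblasts were described here from 9 arrays alone, out of 25 in the series, with no contrast between genotypes. Myoblasts are the dividing descendants of satellite cells, the stem cells of adult skeletal muscle. The 9 arrays held 3 RNA samples, lettered A, B and C, each hybridised to the Affymetrix mouse chip types U74Av2, U74Bv2 and U74Cv2. The members were all wild-type arrays, taken by genotype and not by any measured value, and every probe set on them other than a control was ranked. The other 16 arrays were of myoblasts lacking MyoD (9) or p53 (7), and they are used in 1 paragraph below. The wild-type cells carried no introduced allele, per the labels, and were kept undifferentiated on collagen-coated plates, in Ham's medium to which fetal calf serum (20%) and basic fibroblast growth factor (4 ng/ml) had been added. They had been separated from other muscle cells by preplating and repeated passage, and their labelled purity was above 98% from desmin, Myf5 and MyoD. The labels do not say whether each letter is a separate mouse or culture, so how much of the spread between samples is technical is not known.

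A cultured myoblast is committed to muscle but still divides. The transcription factors Myf5 and MyoD mark that commitment. Myogenin then switches on the genes of the contractile apparatus when cells leave the cell cycle and fuse, which serum and fibroblast growth factor normally hold back. The most abundant transcripts of any dividing mammalian cell are those for ribosomes, the cytoskeleton, protein folding and energy supply, so muscle genes are read here against that common ground.

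Each signal was turned into its percentile among all non-control probe sets of the same array, and the percentile was averaged over the 3 samples. A probe set is the group of short probes that reads 1 transcript. The chips held 36701 such probe sets, and 29131 of them carried a single gene symbol, which gave 15964 genes. A gene was represented by its probe set with the highest mean percentile, on whichever chip type. By this rule the median gene lay at the 64.0th percentile, 16.5% of genes lay at or above the 90th and 28.5% at or below the 40th, and these are the levels against which every gene list below is read.

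The percentiles were close between samples but not between probe sets. Pearson's r of the percentiles of a pair of samples, taken over probe sets and so not over independent points, was 0.967 to 0.974 on U74Av2. It was 0.955 to 0.959 on U74Bv2, and on U74Cv2 0.920 to 0.922. The median range over the 3 samples was 5.28, 6.74 and 8.64 percentile points on those chip types, and among probe sets at or above the 90th percentile it was 1.08, 1.68 and 1.15 points. Where a gene had several probe sets on 1 chip type, which was so for 5652 pairs of gene and chip type, the highest and the lowest differed by a median of 26.2 points, and by over 40 points in 32.3% of them. The extreme was Naca, a chaperone subunit of nascent proteins, whose 3 probe sets on U74Av2 ranged from 0.311 to 98.5. A signal therefore carries the performance of its probes as well as the abundance of its transcript. Differences between genes of less than that median gap are not read as differences in abundance, and a low percentile does not show that a transcript is missing.

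A lower reference came from the 15 probe sets per chip type for genes of Bacillus subtilis, which have no mouse target. Their mean percentiles ran up to 28.8 on U74Av2, up to 40.5 on the second chip type and up to 51.0 on the third. The highest of them had a mean signal of 145.5, 493.6 and 553.6, and 28.7%, 40.4% and 50.9% of mouse probe sets on the 3 chip types lay at or below it. On U74Cv2 the lower part of the ranking thus overlapped the range of the control probe sets.

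Sample B differed from A and C in sex-linked transcripts. Xist, the RNA that coats the inactive X chromosome of females, gave signals of 111.1, 6495 and 39.8 in A, B and C. The Y-linked genes Eif2s3y (813.2, 16.9 and 1280), Kdm5d (1535, 72.2 and 2004) and Uty (244.2, 19.4 and 181.4) were each lowest in B. Sry, also Y-linked, gave 166, 197 and 179 and did not separate the samples. Sample B was therefore not the RNA of A or of C. All wild-type arrays of U74Av2 shared a scan day and a chip lot, as did those of U74Cv2, while on U74Bv2 sample A was scanned on another day than B and C.

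The ranking was led by genes of translation and the cytoskeleton, with Myod1 among them. On U74Av2, the single-symbol genes of highest percentile were Rpl41 (signals of 64617, 63621 and 87695 in A, B and C), a protein of the large ribosomal subunit, and Lgals1 (56101, 62821 and 75297), which encodes galectin-1. Eef1a1 (55690, 58644 and 75172), the elongation factor that brings aminoacyl-tRNA to the ribosome, came next in order. All samples gave these genes signals far above the array medians of 545.7 to 565.4. Among the 25 highest genes of this chip type, 10 further ones were Rplp0, Rps24, Rps18, Rps4x, Rps3, Rps3a1, Rpl19, Rpl8, Rps28 and Tpt1. Tpt1 encodes the translationally controlled tumour protein and is not a ribosomal gene. Others were the cytoskeletal genes Actg1, Tuba1c and Tmsb10, the nuclear lamina gene Lmna, the calcium-binding protein gene S100a6, the G protein gene Gnas, the nuclear transport gene Ran, the nucleosome-binding gene Hmgn1 and the glycolytic gene Pkm. Gm15772, a predicted gene, and Sct, which encodes the gut hormone secretin, complete the 25. Myod1 stood in this company with signals of 37440, 40169 and 45187 and a mean percentile of 99.7 ± 0.0290 (SD, n = 3).

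**Figure D1:**
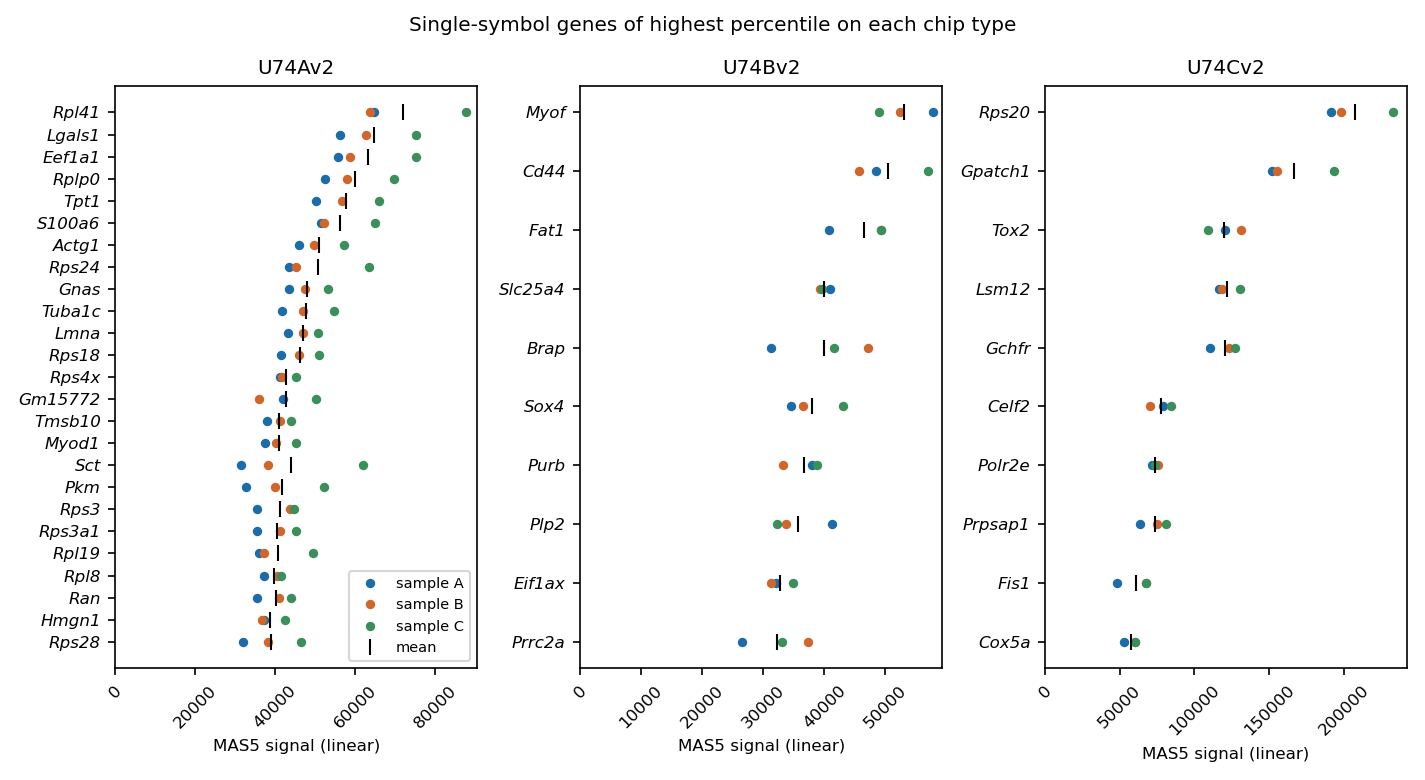
The single-symbol genes of highest percentile are drawn for each chip type, with the MAS5 signal on a linear axis from 0, 1 point per wild-type sample and the mean as a tick. Rpl41 leads U74Av2 with signals of 63621 to 87695, and Myod1 sits among the ribosomal genes at 37440 to 45187.

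The second and the third chip type, which hold many transcripts known at design only as expressed sequence tags, had other leaders. On U74Bv2 they were Myof (57750, 52454 and 48987), which encodes myoferlin, a membrane protein of myoblast fusion, then Cd44 (48466, 45660 and 57043), the hyaluronan receptor, and Fat1 (40807, 49289 and 49257), a giant cadherin. Slc25a4, the ADP/ATP carrier of muscle and heart, followed with 40877, 39345 and 39609, and then Brap, Sox4, Purb, Plp2, Eif1ax and Prrc2a. On U74Cv2 the leaders were Rps20 (191241, 198562 and 233218), Gpatch1, Tox2, Lsm12, Gchfr, Celf2, Polr2e, Prpsap1, Fis1 and Cox5a. The highest set of Myof was matched by a companion at 99.9, whereas several of the U74Cv2 leaders were not matched. Gpatch1 had a companion probe set at 68.2, Gchfr had others at 75.6 and 64.1, and Rps20 had others at 30.7 and 30.6.

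Many of the highest sets were of a particular design. Some names carry a suffix by which the manufacturer marked sets that share probes with related sequences or that were designed under relaxed rules. Such sets made up 36.9% of U74Cv2 but 75% of the 112 sets at or above the 99th percentile. On U74Av2 the shares were 22.6% and 35.2%, and on U74Bv2 13.8% and 31.2%. Probe sets with several symbols, which are not named here, held 36 of the 122 sets of that class on U74Av2, and 19 of these 36 listed a ribosomal protein among their symbols. The set of highest signal on U74Bv2 carried no symbol at all, with signals of 76224, 108077 and 105856.

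A small part of the transcripts carried much of the signal. The top 1% of probe sets held 18.6 ± 1.55% of the summed signal on U74Av2, 12.3 ± 0.287% on U74Bv2 and 23.0 ± 0.727% on U74Cv2 (SD, n = 3). The top 10% held 59.6 ± 1.07%, 47.6 ± 0.120% and 63.5 ± 0.552%. Within each chip type the 3 samples differed by little, and on U74Av2 sample C had the highest share in the top 1%, 20.3% against 17.2% in A and 18.3% in B.

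The plot of gene lists orders 45 families by the median percentile of their members. Lists were written from general knowledge of the genes, with earlier results of these data known. Protein synthesis, protein folding and breakdown, actin and respiration stood at the upper end, and genes of other organs at the lower end.

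**Figure D2:**
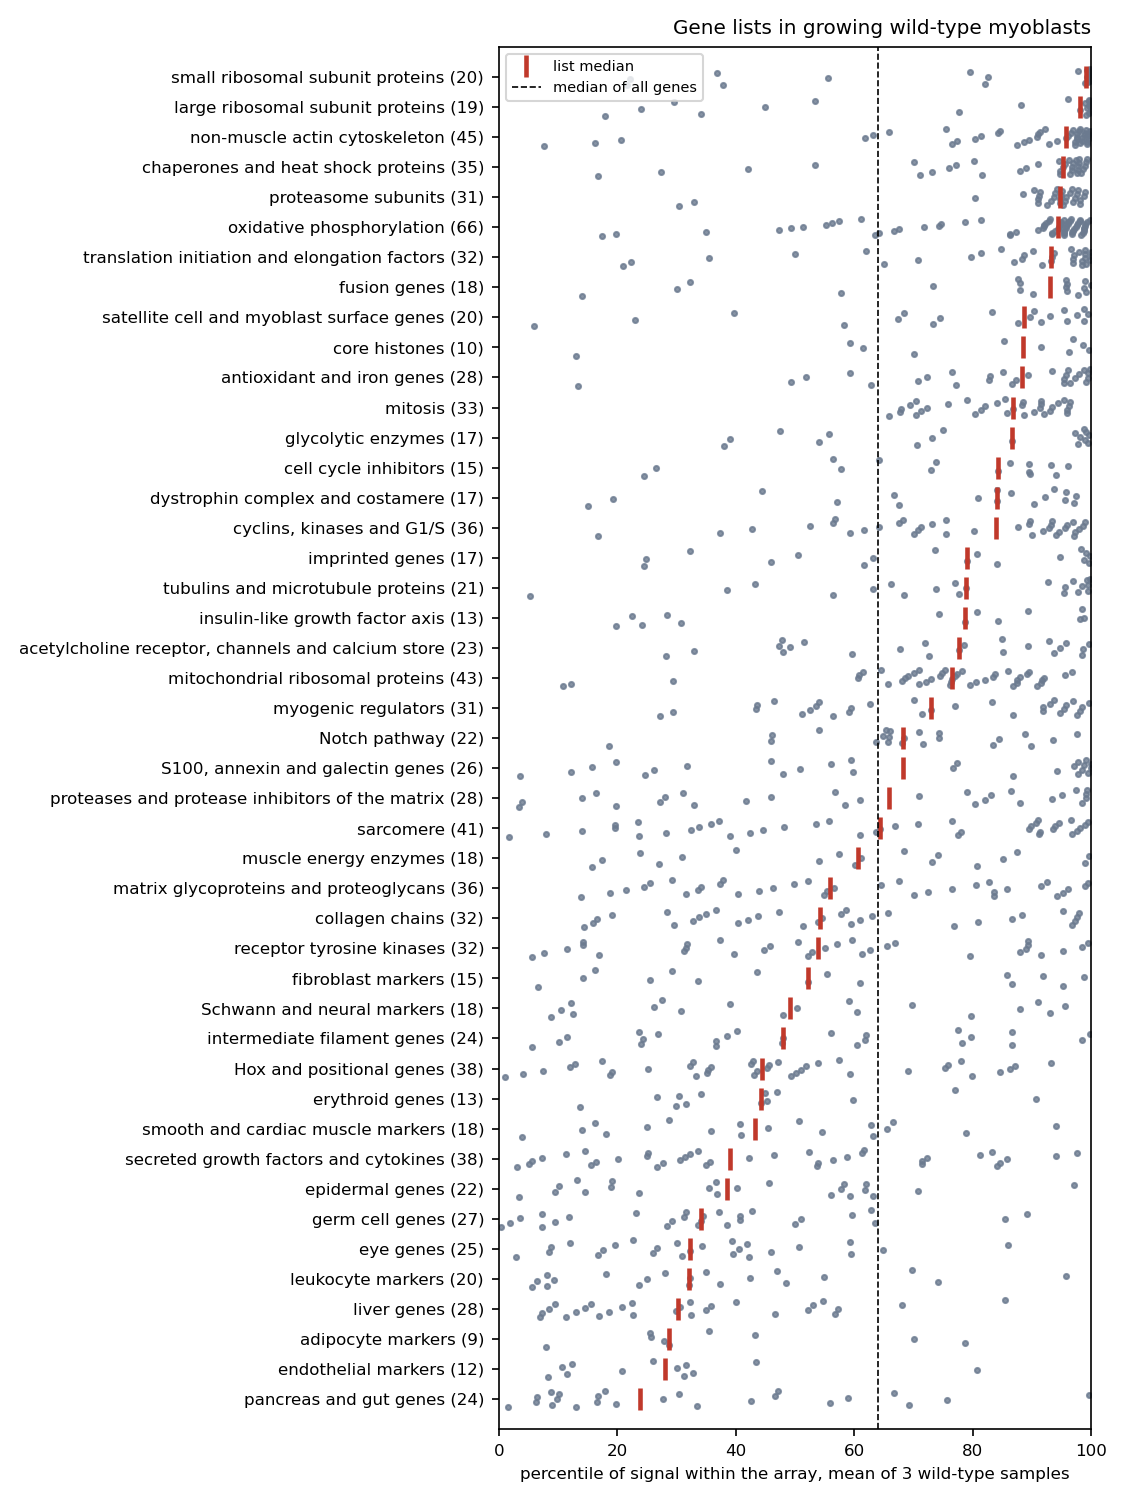
Each grey point is 1 gene, at its mean percentile over the 3 wild-type samples, for each gene list, with the number of genes measured in parentheses, and the vertical spread within a row has no meaning. Red ticks are list medians and the dashed line is the median of all genes, 64.0; ribosomal proteins lie at the top and pancreas and gut genes at the bottom, with a median of 23.8.

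Ribosomal protein genes gave the highest medians. Of 47 large-subunit genes 19 had a single-symbol probe set, with a median of 98.2 and 11 at or above the 90th percentile. Of 33 small-subunit genes 20 had one, with a median of 99.1 and 12 in that class. Many ribosomal proteins have processed pseudogenes of nearly the same sequence, and their probe sets can list several symbols, so a signal may combine copies. Both lists also had members far below the rest, which every dividing cell needs. Rpl32 (51.1, 46.7 and 96.2), Rpl35a, Rpl39 and Rpl27 lay at the 17.9th to 34.1st percentile, and Rps15 (126, 108 and 41.0), Rps15a, Rps6 and Fau at the 21.6th to 37.8th. Those 8 were 20.5% of the 39 ribosomal genes measured, against 28.5% of all genes at or below the 40th percentile. Genes that every cell needs thus had low readings on these arrays, and why was not tested. The 39 leave out sets of several symbols. On U74Av2, such sets that list a ribosomal protein had a median of 98.9.

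The proteins that run translation were ranked nearly as high. Of 32 genes measured in the list of initiation and elongation factors, 19 lay at or above the 90th percentile, with a median of 93.3. Among them were Eef1a1, Eif1ax, Pabpc1 (26327, 26874 and 27453), the poly(A)-binding protein, and Eef2 (23450, 23682 and 28915), the translocase of elongation. The list also held Tpt1 in that class, which encodes the translationally controlled tumour protein and not an initiation or elongation factor. The lowest were Eif4h at 20.9, Eef1g at 22.3 and Eif5a at 35.6. Mitochondrial ribosomal proteins were ranked lower, with a median of 76.5 over 43 genes and 6 at or above the 90th percentile. Mrps31 (11255, 11289 and 12906) was the highest of them at 96.8.

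Proteasome genes formed the tightest of the high lists. All 31 had a probe set, and 27 (87.1%) lay at or above the 90th percentile, with quartiles of 91.3 and 96.9. Psmb5, a catalytic subunit, gave 12641, 11285 and 21456 on U74Bv2, and Psma3 (23204, 21569 and 21625), Psma2, Psmb4 and Psma4 lay at 97.8 to 98.8. Outside that class were Psmd12 at 88.6, Psma1 at 80.5, Psmd2 at 33.0 and Psmc4 at 30.4. Psmb4 also shows the limit of a single set, for its other sets on U74Av2 read 28.1 and 1.98.

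Chaperones had a median of 95.2 over 35 genes, with 22 at or above the 90th percentile. Hspd1 (29168, 30966 and 29152), the mitochondrial chaperonin, Hsp90aa1 (26135, 31142 and 25680), Hspa8, the constitutive member of the heat shock 70 family, and Hspa5, its counterpart in the endoplasmic reticulum, led the list. Serpinh1, the collagen chaperone, stood at 98.3. The inducible members were much lower and not equal between samples. Hspa1b gave 417, 376 and 1641, and Hspa1a gave 143, 169 and 1216, so sample C read above A and B for both. The lowest were Hspb1 at 27.5 and Calr, calreticulin, at 16.8.

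Energy supply divided by enzyme. Of 66 oxidative phosphorylation genes measured, 44 (66.7%) lay at or above the 90th percentile, with a median of 94.5. Cox5a (53025, 59958 and 59922), Ndufs7, Ndufs8, Atp5l and Cyc1 headed the list at 98.9 to 99.8. At its foot were Cox7a1, the heart and muscle form of a cytochrome oxidase subunit, at 17.4, Cox8a at 19.9, Ndufc2 at 35.0 and Atp5g1 at 47.3. Glycolytic genes had a wider spread, with quartiles of 55.7 and 98.8 over 17 genes. Pkm (32635, 39870 and 52263), Ldha (27944, 33928 and 43554), Aldoa, Eno3 and Hk1 lay at 98.8 to 99.7. Eno3 is the muscle enolase, and its signals of 24584, 24682 and 26143 were close between samples. Pgam2, the muscle phosphoglycerate mutase, lay at 54.1, the lactate exporter Slc16a3 at 47.4, Pfkp at 39.0 and Aldoc, the brain aldolase, at 38.1.

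Genes of the non-muscle cytoskeleton were also ranked high. Of 45 actin cytoskeleton genes, 29 lay at or above the 90th percentile and the median was 95.7. Actg1 (45946, 49734 and 57099), the cytoplasmic gamma-actin, led, followed by Tmsb10, Myl6, Myl12a and Tmsb4x, which bind actin monomers or form the light chains of non-muscle myosin. Low members were Flna, filamin A, at 7.71, Cnn1 at 16.3, Zyx at 20.6 and Pfn1, profilin, at 61.8. Among tubulins, Tuba1c, Tubb5, Tuba1a and Tubb6 lay at 98.4 to 99.8 and Tubb4a, Tubb4b and Tuba3a at 38.5 to 56.4. Of the dynein light chains in the same list, Dynll1 lay at 99.4 and Dynlt1b at 5.33. Intermediate filaments had a median of 47.9 over 24 genes and were led by Lmna (43155, 46850 and 50706) and Nes (23298, 23322 and 15019), nestin, the filament of dividing precursor cells. Other sets of Nes read 21.7 and 9.27. Des, desmin, the muscle filament, lay at 86.7. Keratins varied, with Krt16 at 10.3, Krt5 at 23.6, Krt10 at 61.8, Krt15 at 62.1 and Krt4 at 70.8.

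The S100, annexin and galectin genes were divided into high and low members, with quartiles of 35.3 and 97.9 over 26 genes. Lgals1 and S100a6 (51511, 52092 and 65038) stood with the ribosomal proteins. Anxa2 (34804, 30859 and 34450) and Anxa1, membrane-binding proteins that act in membrane repair, lay at 99.4 and 99.1. S100a4 gave 16041, 23843 and 31354, with A the lowest and C the highest. The lowest were Anxa8, Lgals7, S100a9 and Anxa10, at 3.58 to 19.8, and S100a9 is best known from neutrophils.

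Extracellular matrix lists had shares at the top near that of all genes or somewhat above it. At or above the 90th percentile were 7 of 36 glycoprotein and proteoglycan genes (19.4%, against 16.5% of all genes). So were 7 of 28 matrix proteases and inhibitors (25%). Of 32 collagen chains, 5 (15.6%) lay at or above the 90th percentile, a share close to that of all genes, and the median was 54.2. Those 5 were Col5a2 (16991, 17606 and 12463), Col4a2 (14751, 15446 and 13021), Col18a1 (13372, 16940 and 9986), Col4a1 (11133, 11384 and 10277) and Col3a1 (10123, 6912 and 8770). Both chains of the common basement membrane collagen IV, Col4a1 and Col4a2, were thus near the top, while Col4a3, a chain of the kidney and lung form, lay at 16.6. Col15a1, Col8a2 and Col17a1 were also below the 20th percentile. Among glycoproteins Lamb2 (16973, 19522 and 18660), a laminin chain, led at 99.6, followed by Lama4, Thbs2, Sparc and Agrn. Agrn encodes agrin, which clusters acetylcholine receptors. Fmod, Tgfbi and Tnxb lay at 13.9 to 21.4. The protease inhibitor Timp1 (27034, 33098 and 38158) was at 99.4, with Serpinf1, Ctsl, Ctsd and Cst3 between 97.4 and 99.2, and Mmp10 and Adamts1 were at 3.35 and 3.91.

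Myogenic regulators had a larger share at the top than all genes. The list holds inhibitors of MyoD as well as MyoD itself, so that share is not a measure of muscle lineage. Of 31 myogenic regulator genes measured, 12 (38.7%) lay at or above the 90th percentile, against 16.5% of all genes, and 2 at or below the 40th. Besides Myod1 these included Id2 (19404, 19436 and 19443), Id3 (14111, 14646 and 22890) and Id1 (11431, 9066 and 16430), inhibitors that bind the E-protein partners of MyoD, and Hes6 (13711, 14098 and 12996), a repressor of the Hes family. Id2 varied by less than any of the others among samples. Myog, myogenin, gave 7278, 6891 and 3772, with percentiles of 94.4, 93.9 and 87.5. The lowest regulators were Pax3 (110, 243 and 73.5), the factor of embryonic muscle precursors, at 27.2, Myf6 at 29.5, and Twist1 and Twist2, at 43.4 and 43.6.

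Markers of myoblasts were high, except for 1. Myod1, Chrna1 and Met were in the top 1% of their chip types. Met, the receptor for hepatocyte growth factor, gave 17724, 18057 and 18421 on U74Bv2, and its set on U74Av2 lay at 64.4. Chrna1, the alpha subunit of the muscle acetylcholine receptor, gave 58406, 47074 and 44304 on U74Cv2, and its set on U74Av2 lay at 99.1. Cdh15, M-cadherin, gave 5012, 4044 and 3091 at 87.7 ± 3.37, while its second set read 13.6. Des gave 3897, 3560 and 3551 at 86.7 ± 0.672. Myf5 was the least uniform of the markers, with signals of 165, 1041 and 973 and percentiles of 30.6, 62.5 and 60.5, so sample A stood apart from B and C. Pax7, the remaining marker fixed for myoblasts, was not analysed here, as no set named it alone.

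**Figure D3:**
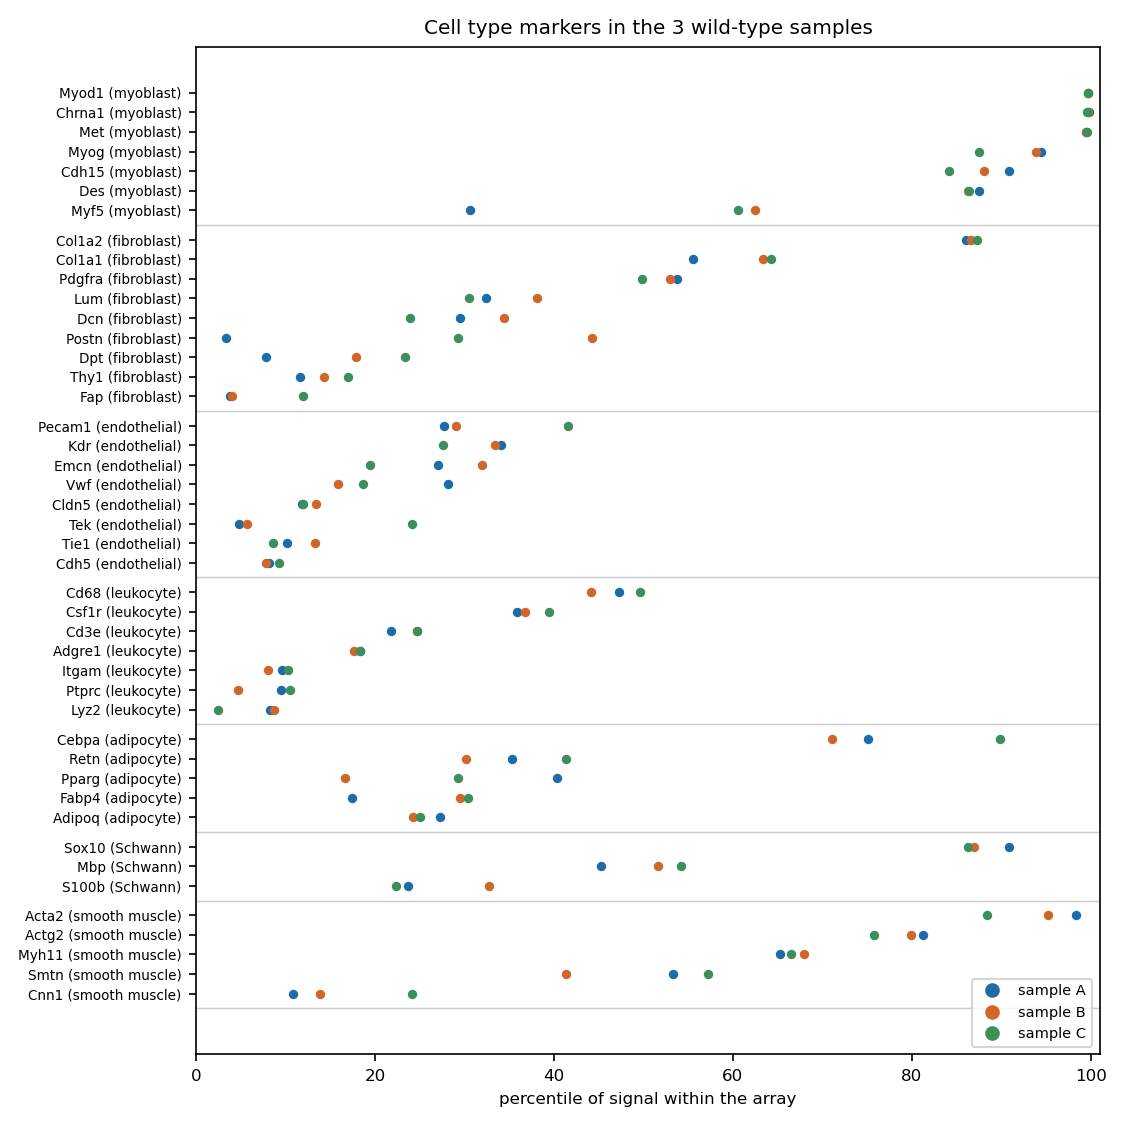
Percentiles of the cell type markers are shown for samples A, B and C, 1 row per gene, grouped by cell type. Myoblast markers other than Myf5 lie at 84.1 or above in each sample, endothelial markers at 41.6 or below, and Col1a2, Cebpa, Sox10, Acta2 and Actg2 are the markers of other cell types with a mean above 70.

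Markers of endothelium and leukocytes were mostly in the range of the controls. Most of those of fibroblasts and smooth muscle read above it, though the fibroblast markers were mostly low in the ranking. At or below the highest control of their chip type were 5 of 7 leukocyte, 3 of 9 fibroblast and 1 of 5 smooth muscle markers. So were 3 of 5 adipocyte and 2 of 3 Schwann cell markers. All 8 endothelial markers fixed for that cell type lay at or below the 40th percentile, with a median of 16.6. Of these, 6 were at or below the highest B. subtilis control of their chip type, against 26.3% of all genes. Pecam1 (136, 133 and 349), an adhesion molecule of endothelium, was the highest at 32.8, and Cdh5 (25.8, 21.9 and 30.3), the endothelial cadherin, the lowest at 8.36. In a wider endothelial list of 12 genes, Eng, an accessory receptor also made by other cells, lay at 80.8 and Esam at 43.5. Leukocyte markers had a median of 18.0 over 7 genes, with Ptprc, the pan-leukocyte phosphatase CD45, at 8.23 and Cd68 at 47.0. In a wider leukocyte list of 20 genes the median was 32.2, and Laptm5, Cd53 and Cd14 lay at 95.7, 74.2 and 69.7. Fibroblast markers were uneven. The 9 fixed for that cell type had a median of 29.3, with 6 at or below the 40th percentile and none at or above the 90th. Dcn, with a mean signal of 150.2, was just above the highest control of U74Av2 at 145.5. Col1a2 (3540, 3631 and 3750) lay at 86.7 by a suffixed set and Col1a1 at 61.0, both collagen I chains, and Pdgfra was at 52.1. The other set of Col1a2 read 21.5 and that of Col1a1 15.4, and other sets of Pdgfra read 47.5 and 12.1. Lum, Dcn, Postn, Dpt, Thy1 and Fap lay between 6.58 and 33.7, and Postn differed between samples with 12.4, 389 and 154. A wider fibroblast list of 15 genes had a median of 52.1. At or above the 90th percentile were 3 of them (20%, against 16.5% of all genes), namely S100a4 at 98.8, Col3a1 at 95.3 and Tcf4 at 91.9. Tcf4 was listed by its symbol, which is that of an E-protein gene, so its level is not read as that of a fibroblast marker.

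A few markers of other cells were high. Acta2, smooth muscle alpha-actin, which myoblasts in culture also make, gave 17640, 8524 and 4087 and lay at 94.0, and its set on U74Cv2 lay at 42.1. Actg2 lay at 78.9, Myh11 at 66.6, Smtn at 50.6 and Cnn1 at 16.3. Another set of Actg2 read 17.3, and others of Myh11 read 11.4 and 5.88. Sox10, a neural crest factor, lay at 88.0 by a set of the suffixed kind, and its other sets read 9.39 and 56.8. Cebpa, an adipocyte factor also made elsewhere, gave 1945, 1574 and 4580 and lay at 78.7, while Adipoq and Fabp4 were at 25.5 and 25.7. Whether other cells were present in the cultures was not tested, and on these arrays fewer cells of a type and less RNA per cell cannot be told apart.

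Surface and fusion genes of myoblasts were high. Of 20 satellite cell and myoblast surface genes, 9 lay at or above the 90th percentile, with a median of 88.7. Met was followed by Sdc3 (11286, 11938 and 15933), a syndecan of satellite cells, the integrin chain Itgb1, Megf10 (17183, 13803 and 12582) and Cdh2, N-cadherin. Calcr, the calcitonin receptor, a marker of resting satellite cells, lay at 5.95, Cd34 at 23.0 and Fgfr4 at 39.7. Fusion genes had a median of 93.0 over 18 genes. Mymk, myomaker, the membrane protein required for fusion, gave 17066, 20081 and 11470 at 99.2, and Kirrel lay at 97.8. Adam12 at 14.0, Boc at 30.1 and Tspan3 at 32.3 were the lowest.

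Sarcomere genes were spread over the whole ranking. Of 41 genes measured, 13 (31.7%, against 16.5% of all genes) lay at or above the 90th percentile, and 13 (31.7%, against 28.5%) at or below the 40th. Without suffixed sets 7 of 36 (19.4%) were in the upper class, against 13.9% of all genes under the same setting. Ankrd1 (37075, 33961 and 29302), a stretch-responsive ankyrin repeat protein, led. Tnni1 (23923, 29321 and 22552) and Tnnt1 (16285, 29776 and 8486), the slow-type troponins I and T, lay at 98.9 and 97.6. Acta1, skeletal alpha-actin, gave 20968, 26507 and 10864, and Actc1, cardiac alpha-actin, which developing muscle also makes, gave 14085, 16782 and 7336. At the foot of the list were Tnni2, the fast troponin I, at 19.6, Myh2, an adult fast myosin, at 7.99, and Myl2 and Myl3, slow and ventricular myosin light chains, at 14.1 and 1.76. Each isoform was read by probes of its own, so these distances are not ratios of abundance.

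The samples kept an order across this list. Among the 25 sarcomere genes with a mean percentile of at least 50, sample B was the highest for 21 and sample C the lowest for 23. Their median percentile was 91.4 in A, 93.2 in B and 86.3 in C. Tnnt1 gave 98.2, 99.3 and 95.4, Acta1 gave 98.8, 99.1 and 96.7, and the same order held for Actc1 at 97.8, 98.2 and 94.5. Ankrd1, in contrast, was highest in A and lowest in C. Myog had its lowest signal in C as well. Other muscle lists did not hold the full order. Among genes over the same level, sample C was the lowest for 14 of 26 myogenic regulators. It was also the lowest for 9 of 17 receptor and channel genes and 7 of 12 muscle energy enzymes. Sample B was the highest for 8, 6 and 6 genes of these lists, A for 8, 6 and 5, and C for 10, 5 and 1. The median percentile was lowest in A for regulators (85.4) and energy enzymes (71.6), and in C for receptor and channel genes (86.1). The order was not general. Of 33 mitosis genes 6 were highest in A, 11 in B and 16 in C, and of 30 ribosomal genes over the same level 11 were highest in A, 7 in B and 12 in C. Sample B was also the sample with the Xist signal, and the part of either in the order of sarcomere genes was not tested.

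**Figure D4:**
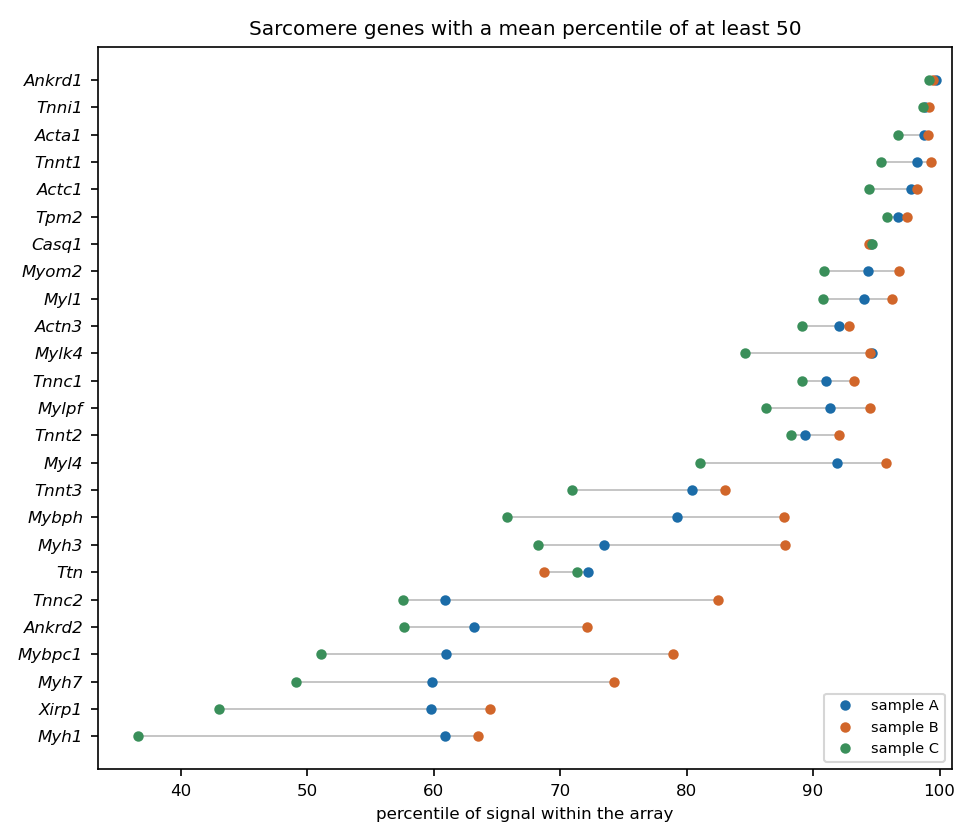
Percentiles of the 25 sarcomere genes with a mean of at least 50 are drawn for the 3 wild-type samples, with a grey line over their range. Sample B lies at the right end of the range for 21 genes and sample C at the left end for 23.

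Excitation and energy genes of muscle were mixed. Of 23 genes of the acetylcholine receptor, ion channels and calcium store, 7 lay at or above the 90th percentile and the median was 77.8. Chrna1 was followed by Jph2 (10349, 12036 and 15780), which ties surface membrane to calcium store, Stac3 (12798, 12418 and 9268), an adaptor of the voltage sensor, Cacnb1 and Chrnb1 (8074, 7475 and 7436). Ache, acetylcholinesterase, lay at 28.2, the chloride channel Clcn1 at 32.9 and Trdn, triadin, at 47.8. Muscle energy enzymes had a median of 60.6 over 18 genes, with Fabp3 (20253, 19817 and 18041), a fatty acid binding protein, at 99.6, and Car3, Phka1 and Pygm, muscle glycogen phosphorylase, at 80.8 to 87.5. Ckmt2, the mitochondrial creatine kinase of sarcomeric muscle, lay at 15.8, Phkg1 at 23.9 and Ampd1 at 27.0. In the dystrophin complex, Utrn (11523, 8523 and 7713), utrophin, lay at 97.4 and its paralogue Dmd, dystrophin, gave 46.3, 126 and 10.97 by its sole set. Sntb1, Vcl, Dysf and Dtna lay at 93.7 to 97.2.

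Mitosis genes lay in the upper part of the ranking. No mitosis gene of 33 lay at or below the 40th percentile, against 28.5% of all genes, and 13 (39.4%) lay at or above the 90th. Cdc20 (9392, 10741 and 11713), an activator of the anaphase-promoting complex, Bub3, Cks1b, Ccnb2 and Tpx2 led at 95.4 to 96.5. The lowest, Cdc25c (1285, 1210 and 1224), lay at 66.0, just above the median of all genes. Among 36 genes of G1 and DNA synthesis, Mcm5 (23773, 24724 and 27639), a subunit of the replicative helicase, Tk1, Ccnd1 (15183, 17128 and 13292), cyclin D1, Cdk4 and Rrm2 lay at 97.1 to 98.9. Rb1 and Rbl2, pocket proteins that restrain entry into S phase, lay at 42.8 and 37.3, and Tyms, thymidylate synthase, at 16.7 by a suffixed set. Of the inhibitors, Gadd45a gave 15168, 12145 and 6037 at 96.0, and Cdkn1a, p21, gave 6852, 6502 and 8124 at 94.2. Cdkn1b, p27, and Cdkn1c, p57, lay at 26.5 and 24.5.

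Growth factor receptors had a share at the top near that of all genes, and secreted factors had a lower one. Of 32 receptor tyrosine kinase genes, 4 (12.5%) lay at or above the 90th percentile, namely Met, Igf1r (24463, 16911 and 20269), Ddr1 and Fgfr1 (5469, 5308 and 5664). Ret, Pdgfrb, Tek and Kit lay between 5.68 and 14.2. In the insulin-like growth factor axis, Igf2 gave 20705, 22536 and 24861 at 98.8 by 1 set, while a second read 12.7, and Irs1 and Insr lay at 98.2 and 89.3. Igfbp3 differed between samples with 1882, 5959 and 3414. Secreted factors had a median of 39.0 over 38 genes, against 64.0 over all genes. Of them 19 (50%, against 28.5% of all genes) lay at or below the 40th percentile and 2 (5.26%, against 16.5%) at or above the 90th. Those 2 were Csf1 (13447, 13462 and 15270), the macrophage growth factor, at 97.7 and Vegfa at 94.1, and Pdgfb, Bdnf and Pdgfa followed at 84.1 to 85.9. Fgf2, the factor supplied in the medium, gave 18.7, 14.0 and 17.7 and lay at 5.10, with Il6, Il15 and Ptn at 3.01 to 7.29. In the Notch pathway Hes6, Rbpj and Hes5 led at 97.6, 93.5 and 89.8, and Dll4, a ligand of blood vessels, was lowest at 18.6.

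Genes of other organs gave the lower end. Over 139 genes of liver, red cells, pancreas and gut, eye, germ cells and epidermis, the median was 33.6. At or below the 40th percentile were 84 (60.4%, against 28.5% of all genes). At or below the highest control of their chip type were 63 (45.3%, against 26.3%). Among liver genes Cyp3a11, Pck1 and Fgg lay at 7.29 to 9.49. Sycp1, a protein of the meiotic synaptonemal complex, lay at 0.394 with signals of 2.35, 3.38 and 4.18. Vil1, villin of the gut, lay at 1.58 and the lens gene Crygb at 2.98. At or above the 90th percentile were 3 genes, each by a suffixed set and none when such sets were left out. Sct gave 31406, 38134 and 62005, its companion set read 99.6 and its plain set 65.7. Sprr1b lay at 97.2, with other sets at 2.93 and 49.1. Ank1, the red cell ankyrin, of which muscle makes a short form, lay at 90.6, with other sets at 36.6 to 87.2.

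The upper end of the ranking was shared to a large extent between samples. On U74Av2, U74Bv2 and U74Cv2 a pair of wild-type samples shared 89.0%, 81.2% and 85.4% of the top 1% of probe sets on average, over 3 pairs. A wild-type and a MyoD-/- array shared 79.7%, 64.6% and 73.1% over 9 pairs, and a wild-type and a p53-/- array 82.0%, 63.7% and 74.4%, over 9 pairs on U74Av2 and U74Cv2 and 3 on U74Bv2, which had a single p53-/- array. Both sets of pairs use the same wild-type arrays, and no test was made. Of the 25 highest genes of U74Av2, 23 were at or above the 99th percentile in every MyoD-/- array and in every p53-/- array. The others were Myod1, whose lowest percentile was 87.8 in MyoD-/- and 98.4 in p53-/-, and Sct, at 81.3 and 85.0. The sources used here do not say which part of Myod1 its probe set reads.

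Promoter windows were taken from RefSeq on GRCm38.p6, each running from 250 bases before to 50 bases after a gene's start, and 12681 of the 15964 genes had 16015 of them. All shares below are over windows, and a match is a description of letters only. Transcripts of ribosomal proteins are known to begin within a run of pyrimidines, through which their translation is controlled. A run of at least 8 C or T on the gene's strand, overlapping the 10 bases either side of the start, was found in 43.5% of 69 windows of ribosomal protein genes and in 13.7% of all 32851 windows. It was not particular to them, since 40% of 30 windows of matrix glycoproteins and proteoglycans held one. So did 32.1% of 28 windows of collagen chains, 4 of 10 of fibroblast markers and 4 of 7 of endothelial markers. The stretch from 25 bases before to 25 after the start is shown for the 6 such genes of highest percentile, with the run in capitals.
Rps24, chr14:24490653-24490702 (+): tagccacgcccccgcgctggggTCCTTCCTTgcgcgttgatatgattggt
Rps18, chr17:33955641-33955690 (-): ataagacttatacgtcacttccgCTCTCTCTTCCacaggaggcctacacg
Rplp2, chr7:141447626-141447675 (+): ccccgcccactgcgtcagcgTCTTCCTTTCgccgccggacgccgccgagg
Rpl19, chr11:98026899-98026948 (+): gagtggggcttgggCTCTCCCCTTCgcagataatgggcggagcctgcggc
Rps10, chr17:27635220-27635269 (-): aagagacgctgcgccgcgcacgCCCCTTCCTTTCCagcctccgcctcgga
Rpl7a, chr2:26910782-26910831 (+): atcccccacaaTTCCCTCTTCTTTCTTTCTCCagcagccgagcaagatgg
The 6 were chosen for a run at this place, so its position in them is by selection and not a result.

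The sequence CAGCTG, an E-box core that MyoD and its partners bind, reads the same on both strands. It was found in 16.3% of all windows, in 38.1% of 42 windows of sarcomere genes, in 47.4% of 19 of the acetylcholine receptor and channel list and in 47.4% of 19 of muscle energy enzymes. It was not particular to muscle, since 43.5% of 23 windows of eye genes and 34.8% of 23 of pancreas and gut genes held it as well, and 13.2% of windows of genes at or above the 99th percentile did. Windows from 150 bases before to 30 after the start are shown for the 4 genes of highest percentile among the sarcomere and receptor lists that hold the motif there, with CAGCTG in capitals.
Chrna1, chr2:73580309-73580488 (-): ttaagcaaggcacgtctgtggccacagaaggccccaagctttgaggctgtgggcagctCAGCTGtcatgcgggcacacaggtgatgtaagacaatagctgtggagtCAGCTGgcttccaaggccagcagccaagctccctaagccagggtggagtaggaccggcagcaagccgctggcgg
Tnni1, chr1:135799271-135799450 (+): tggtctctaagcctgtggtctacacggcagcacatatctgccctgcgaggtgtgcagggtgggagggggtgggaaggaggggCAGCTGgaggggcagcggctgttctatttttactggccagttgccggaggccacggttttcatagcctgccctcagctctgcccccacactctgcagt
Jph2, chr2:163397944-163398123 (-): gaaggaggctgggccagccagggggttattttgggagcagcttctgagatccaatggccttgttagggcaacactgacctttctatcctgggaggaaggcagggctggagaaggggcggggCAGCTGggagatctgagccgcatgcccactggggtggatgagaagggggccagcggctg
Chrng, chr1:87205661-87205840 (+): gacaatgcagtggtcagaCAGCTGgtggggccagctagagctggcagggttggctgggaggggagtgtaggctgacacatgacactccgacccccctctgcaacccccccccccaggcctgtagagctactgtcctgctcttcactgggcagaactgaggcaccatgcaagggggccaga
Chrna1 holds a pair of copies in the window and the other genes 1 each.

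Base composition and the TATA box differed along the ranking. The mean number of CG dinucleotides per window was 10.5 ± 10.9 (SD over 1814 windows) for genes below the 20th percentile, 17.1 ± 12.3 between the 40th and the 60th, and 23.8 ± 12.3 over 272 windows of genes at or above the 99th. The SD within each class was close to the span between the lowest and the highest class. The sequence TATAAA on the gene's strand, from 40 to 16 bases before the start, with the other strand not searched, was in 5.29% of windows of the lowest class, in 0.833% between the 80th and the 90th percentile and in 4.04% (11 of 272) at or above the 99th, against 1.99% of all windows. It was in none of the 69 ribosomal protein windows. Pancreas and gut genes held it in 9 of 23 windows (39.1%), and the 3 of lowest percentile that hold it, a digestive enzyme, a fatty acid carrier and a secreted lectin, are shown from 45 bases before to 5 after the start, with TATAAA in capitals.
Amy2a5, chr3:113258695-113258744 (-): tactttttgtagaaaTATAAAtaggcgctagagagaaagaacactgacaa
Fabp1, chr6:71199834-71199883 (+): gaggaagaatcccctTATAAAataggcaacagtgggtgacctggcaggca
Reg2, chr6:78405110-78405159 (+): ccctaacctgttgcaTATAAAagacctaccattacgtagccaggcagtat
In all 3 the motif begins at the same distance from the start, in the stretch where TATA boxes are known to lie. The genes were chosen for holding it in the stretch shown.

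**Figure D5:**
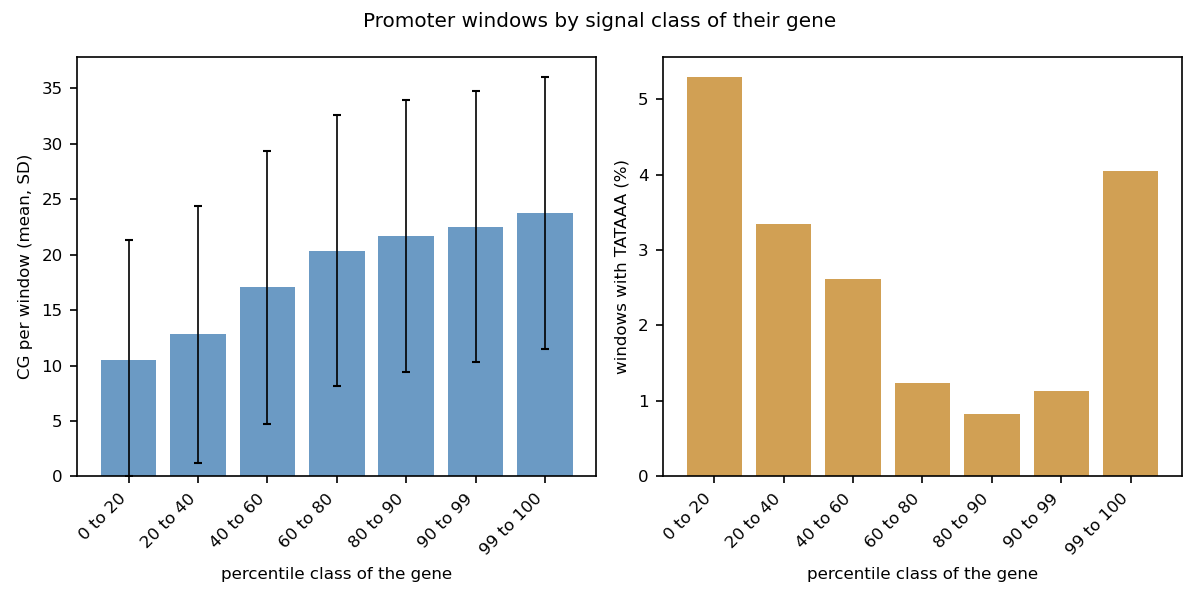
Promoter windows are grouped by the mean percentile of their gene. The left panel shows the mean number of CG dinucleotides per window with the SD over windows, from 10.5 in the lowest class to 23.8 in the highest, and the right panel the percentage of windows with TATAAA, at 5.29% and 4.04% in the outer classes and 0.833% between the 80th and the 90th percentile.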

How the data were processed

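RNA of 3 wild-type samples was measured on 9 arrays. For every array the authors deposited 1 intensity per probe set, the MAS5 signal, which is linear and was named in the submitters' processing notes. Neither its version nor its settings are known here. Trimmed by 2%, the mean signal was 1500.3 to 1500.9 on all 9 arrays, so no further scaling was made. These intensities carry no counts, and the number of arrays, 3 per chip type, limits the precision.

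The 66 control probe sets of each chip type were left out of the ranking. Percentiles were computed per array over 12422, 12411 and 11868 probe sets and averaged over samples, with pandas 2.3.3 and scipy 1.17.1, and the scripts were tested on simulated data. Symbols came from the platform annotation, with 724 probe sets of several symbols and 6846 of none, and were updated by gene ID to GRCm38.p6 for 29044 sets. Named genes were the highest per chip type (25, 10 and 10), the 5 highest and 4 lowest of each list, the cell type markers, the 6 per chip type of largest range over samples among genes at or above the 50th percentile, and the 6 with the largest gap between probe sets. Any further gene was picked with its value in view. The members and the lists were chosen with earlier results of these data known. No test was made, since a single genotype has no contrast.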

Additional observations from a re-analysis of the deposited data

How the results depend on the processing

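Leaving out each sample in turn moved little. For genes at or above the 90th percentile, all genes gave 2628 and then 2638 to 2657, sarcomere genes went from 13 to 11 to 15, and mitosis genes from 13 to 12 to 14. The choice of probe set mattered more. With the median over all probe sets of a gene, the count for all genes was 1116 (6.99%). It was 24 instead of 44 for oxidative phosphorylation (36.4%) and 18 instead of 27 for the proteasome (58.1%). It was 6 for the sarcomere (14.6%) and 6 for mitosis (18.2%). On U74Av2 alone 980 of 8251 genes were in that class, where fewer genes are measured. Without suffixed sets 7 of 36 sarcomere genes were (19.4%), against 2044 of 14728 genes in all (13.9%). A threshold of 95 left 1338 genes (8.38%), 14 of the proteasome (45.2%), 6 of the sarcomere (14.6%) and 5 of mitosis (15.2%). A threshold of 80 gave 4965 genes in all (31.1%) and 23 of mitosis (69.7%). At most the 20th percentile, 44 of 139 genes of other organs and 4 of 12 endothelial markers were counted, against 84 and 10 at the 40th. Of all 15964 genes, 1975 lay below the 20th percentile. The top 5% shared 83.2% on U74Bv2 and 88.6% on U74Cv2 between samples. Under the median rule 45 of 48 list medians stayed on the same side of the median of all genes, and 10 of 452 named genes went from at or above the 90th to at or below the 40th percentile. No paired analysis was possible because no test was made between groups, and shared letters link no RNA across genotypes in the labels. For genes measured on both U74Av2 and U74Bv2, Pearson's r of the best percentiles across 2119 genes was 0.259, with a median absolute difference of 21.5 points. For U74Av2 with U74Cv2 r was 0.150, and for U74Bv2 with U74Cv2 0.237, so ranks of genes read on different chip types are only loosely comparable.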

Other observations

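Imprinted genes, which are read from 1 parental copy, had 6 of 17 members at or above the 90th percentile (35.3%, against 16.5% of all genes). Gnas (43370, 47352 and 53168 in A, B and C), Peg3 (24924, 26040 and 37610), Igf2 and Mest (20020, 14257 and 20817) lay at 98.3 to 99.9. Plagl1 gave 66835, 28204 and 90380, with sample B below A and C. Nnat, Cdkn1c and Phlda2 lay at 24.5 to 32.3. Iron and redox genes had a median of 88.3 over 28 genes, led by Fth1 (62317, 47191 and 62200), the ferritin heavy chain, and by Sod1, Txn1, Prdx2 and Gstp1. Of 38 Hox and other positional genes, 1 lay at or above the 90th percentile, Hoxc8 (10667, 4424 and 7127), followed by Hoxc9, Hoxa9 and Hoxb4 at 84.6 to 87.1, and Hoxd12 and Hoxd13, the most distal genes of their cluster, lay at 4.06 and 12.1.

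Some genes of middle rank differed widely between the samples. Sample C was the highest for Mdk (450.5, 170 and 4768), a secreted growth factor, for Adgrg3 (834, 503 and 12697), for Car8 (363, 422 and 5464), for Cthrc1 (747, 577 and 6854) and for Ripk3 (412, 320 and 4367). Sample A was the highest for Esm1 (11403, 469 and 844), Cavin2 (3334, 237 and 292) and Tfpi (2014, 208 and 386). Sample B was the lowest for Igfbp2 (2778, 457 and 7015) and Wnt5a (1236, 97.5 and 3632), and the highest for Nhlh2 (525, 7954 and 324). Grem1, an inhibitor of bone morphogenetic proteins, gave 2480, 2340 and 155. These were chosen for their range, each by the probe set that showed it, so the values are a description. A second set of Grem1, at 120, 117 and 114, and a second of Adgrg3, at 360, 115 and 442, did not show the same range.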
